A study of Mus musculus with 6 samples.

Results

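The non-collagenous proteins of bone matrix were followed here through 10 genes of osteoblasts and osteocytes. The genes were chosen by name, as *Bglap*, *Bglap2*, *Bglap3*, *Mgp*, *Ibsp*, *Spp1*, *Dmp1*, *Mepe*, *Ifitm5* and *Pdpn*, a rule that uses no measured value. All 10 were found, each once by its Ensembl gene identifier, among the 24016 genes of the deposited expression table. The table holds RNA-seq of MC3T3-E1 subclone 4, a wild-type mouse preosteoblast line that is a single clone, in 3 libraries with vehicle and 3 with corticosterone. All cells had been differentiated for 6 days in ascorbic acid (50 µg/ml) and β-glycerophosphate (10 mM), and corticosterone, the main glucocorticoid of rodents, was given at 100 nM for 24 h. The treatment text of the labels is the same for all 6 libraries and places calcitriol (10 nM) in the medium, so that vehicle cultures are read here as having calcitriol too. The labels give all 6 the same passage range. The study's methods call the replicates biological, but no label says whether they came from separate cultures. No p-value covers more than the spread between these libraries. Those of limma, with their intervals, also draw on the spread of other genes of similar level. In RNA of whole cultures, fewer cells of a type and less RNA per cell cannot be told apart.

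Bone matrix is mostly collagen, and the remaining proteins guide how mineral forms on it and how cells attach to it. Osteocalcin (*Bglap* and its copies) and matrix Gla protein (*Mgp*) carry glutamates that a vitamin K-dependent enzyme carboxylates, so that they bind calcium. Osteocalcin is made late in osteoblast maturation and lies in bone, whereas matrix Gla protein is a known inhibitor of mineralization in cartilage and vessel wall. Bone sialoprotein (*Ibsp*), osteopontin (*Spp1*), dentin matrix protein 1 (*Dmp1*) and matrix extracellular phosphoglycoprotein (*Mepe*) belong to the SIBLING family, phosphorylated glycoproteins encoded side by side in a gene cluster. *Ifitm5* encodes a membrane protein of osteoblasts, and *Pdpn* encodes podoplanin, a membrane protein of the early, process-forming osteocyte.

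The copies of the osteocalcin gene are printed first, because how alike they are decides how far their reads can be told apart. The coding sequences below were read from the GENCODE annotation of GRCm38, all on the minus strand of chromosome 3. That of *Bglap* lies at chr3:88383635-88384415, that of *Bglap2* at chr3:88377870-88378650 and that of *Bglap3* at chr3:88368756-88369536, each in 4 exons. Each is 288 bases long, written 5′ to 3′, and the capitals mark the 13 positions at which the copies are not all alike.
*Bglap*: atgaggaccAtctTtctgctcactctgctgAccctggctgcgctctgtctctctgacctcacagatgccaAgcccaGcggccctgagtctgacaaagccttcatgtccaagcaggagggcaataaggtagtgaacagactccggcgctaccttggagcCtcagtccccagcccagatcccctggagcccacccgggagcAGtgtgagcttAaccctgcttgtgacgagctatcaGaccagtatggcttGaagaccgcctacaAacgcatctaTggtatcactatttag
*Bglap2*: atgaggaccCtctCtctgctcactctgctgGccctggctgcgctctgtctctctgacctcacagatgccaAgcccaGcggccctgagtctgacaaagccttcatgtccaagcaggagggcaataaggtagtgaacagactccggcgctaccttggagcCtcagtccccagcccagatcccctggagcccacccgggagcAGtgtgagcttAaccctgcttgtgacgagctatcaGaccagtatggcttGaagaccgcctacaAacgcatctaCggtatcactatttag
*Bglap3*: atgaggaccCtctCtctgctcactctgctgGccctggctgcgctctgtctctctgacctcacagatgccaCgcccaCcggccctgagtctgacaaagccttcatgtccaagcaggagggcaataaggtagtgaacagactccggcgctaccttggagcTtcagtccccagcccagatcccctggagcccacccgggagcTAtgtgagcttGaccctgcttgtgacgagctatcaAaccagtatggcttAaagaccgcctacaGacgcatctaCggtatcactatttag
*Bglap* and *Bglap2* differed at 4 of the 288 bases (98.6% identity) and shared an unbroken stretch of 241 bases. *Bglap3* differed from *Bglap2* at 9 bases (96.9% identity) and from *Bglap* at 13 (95.5% identity). Over whole annotated transcripts, stretches of 31 bases that some other gene also holds made up 62.9% of *Bglap*, 95.2% of *Bglap2* and 22.5% of *Bglap3*. How the authors assigned such reads is not given in the sources used here, and the summed value of the copies therefore stands beside each copy.

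Values below are normalized counts, the authors' read counts after scaling of each library by 1 factor. The libraries held 19076586 to 25638645 reads with vehicle and 16020401 to 18992332 with corticosterone, so that 1 read was worth 0.772 to 1.28 normalized counts. Osteoblast identity was checked on 7 markers (*Col1a1*, *Col1a2*, *Alpl*, *Runx2*, *Sp7*, *Sparc* and *Postn*), and all 7 were listed. Their summed level, nearly all of it *Col1a1*, *Col1a2* and *Sparc*, was 1404305 to 1453084 with vehicle and 1183760.3 to 1242567 with corticosterone. Of the markers, 2 (*Runx2* and *Sp7*) passed the threshold as lower. By the limma adjusted p alone, *Col1a1*, *Col1a2*, *Alpl* and *Sparc* were lower as well (log2 fold changes -0.15, -0.35, -0.41 and -0.33), while *Postn* had 0.02 without passing. The part of these changes in the falls below was not tested. Of 5 markers of the mature osteocyte, *Sost* was not listed, *Mepe* had at most 2 reads and *Phex* at most 9 reads in any library, while *Dmp1* and *Fgf23* were measured. Their summed level, nearly all of it *Dmp1*, was 624 to 655 with vehicle and 628 to 646 with corticosterone. That sum hides *Fgf23*, which passed the threshold as lower (log2 fold change -2.18, at most 41 reads in a library), while *Dmp1* did not pass. Of the markers of the late osteocyte that were listed, *Mepe* and *Phex* were thus near 0, and the osteocyte genes below were read in cells labelled only as differentiated MC3T3. Of 6 adipocyte markers 2 were listed, with a summed level of 7.72 to 21.1 with vehicle and 108 to 133 with corticosterone, nearly all *Fabp4* (log2 fold change 3.05, past the threshold). *Adipoq*, *Cidec*, *Lep* and *Cfd* were not listed. Myeloid markers (3 of 6 listed, without *Ptprc*, *Adgre1* and *Tyrobp*) summed to 262 to 300.03 and 214 to 239, and endothelial markers (3 of 6 listed) to 0 to 12.2 and 1.07 to 12.8. The part of such cells in the results was not tested.

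A gene was counted as past the threshold with an adjusted p under 0.05 and a log2 fold change beyond 1 in either direction, the limits the study states, in limma on log2(normalized count + 1) of all genes with Benjamini-Hochberg adjustment. Of the 10 genes, 4 were lower past this threshold after corticosterone (*Bglap*, *Bglap2*, *Ibsp* and *Ifitm5*) and 0 were higher (2 were higher at an unadjusted p under 0.05, and edgeR and DESeq2 called 4 lower and 0 higher as well). Over all 24016 genes tested, 1.51% were lower and 1.47% higher by the same rule, and among the 13880 genes with a mean of at least 10 normalized counts, to which 8 of the 10 belong, 1.77% and 1.91%. With the adjusted p alone, 5 of the 10 were lower and 2 higher, against 8.64% and 8.95% of all genes. Among genes with a mean of at least 10, to which all of these belong, the shares were 14.1% and 14.8%. The groups did not overlap in 7 of the 10, in 5 as lower and in 2 as higher, against 14.9% and 14.7% of all genes. In the class with a mean of at least 10, which holds all 7, groups without overlap made up 22.1% as lower and 21.7% as higher. The median log2 fold change of the 10 was -0.51, beside -0.0081 over all genes. With 3 libraries against 3, the smallest p that the exact permutation test can give is 0.1, and each of these 7 genes reached it (two-sided). Vehicle library 1 held the lowest vehicle value of 8 of the 10 genes, and *Bglap*, *Bglap2*, *Ibsp* and *Ifitm5* stayed lower past the threshold without it.

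**Figure D1:**
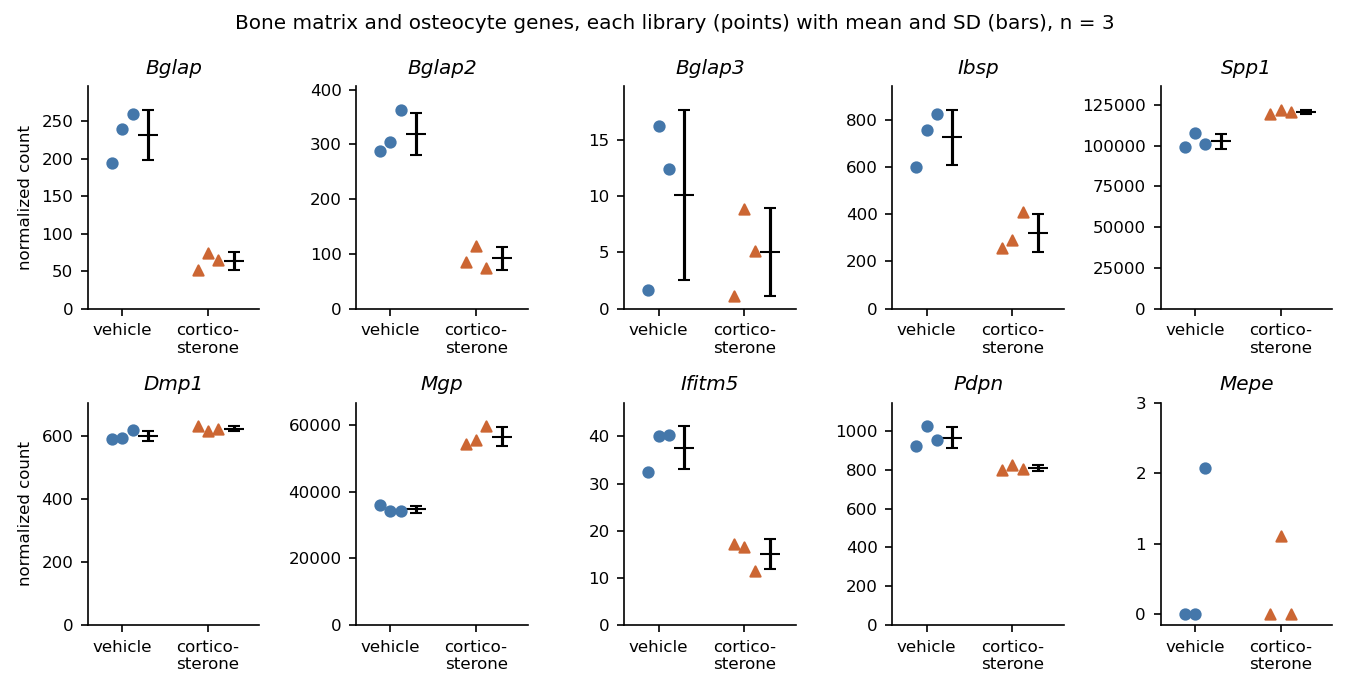
Normalized count (y axis, linear, a separate scale for each gene) in the 3 vehicle libraries (circles) and the 3 corticosterone libraries (triangles), with black bars for mean and SD (n = 3 each; none drawn for *Mepe*, which had at most 2 reads). *Bglap*, *Bglap2*, *Ibsp* and *Ifitm5* sit lower with corticosterone without overlap, *Spp1* and *Mgp* sit higher, and *Dmp1*, *Bglap3* and *Mepe* overlap.

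Osteocalcin was the gene product with the deepest fall, to 28.6% of its vehicle level when its copies were summed. *Bglap* (ENSMUSG00000074483, chr3:88383501-88384464, minus strand) had normalized counts of 195, 240.04 and 261 in the vehicle libraries 1 to 3 and of 51.4, 74.0 and 65.2 in the corticosterone libraries 1 to 3. Every corticosterone library lay far below every vehicle library. The mean fell from 232 ± 33.8 to 63.5 ± 11.4 (SD, n = 3 each), and the log2 fold change was -1.86 with a standard error of 0.16 and a 95% interval of -2.18 to -1.54 (limma adjusted p = 5.2e-10). These values rest on 240 to 311 reads with vehicle and 48 to 67 with corticosterone.

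*Bglap2* (ENSMUSG00000074486, chr3:88377736-88378699) had 289, 305 and 363 with vehicle and 85.7, 115 and 74.2 with corticosterone. Again every corticosterone library lay far below every vehicle library. The mean fell from 319 ± 39.1 to 91.6 ± 21.0 (SD, n = 3 each), and the log2 fold change was -1.81 with a standard error of 0.14 and a 95% interval of -2.09 to -1.52 (limma adjusted p = 1.2e-10). *Bglap3* (ENSMUSG00000074489, chr3:88368616-88372743), the copy known also from kidney, was near the limit of detection with 1.62, 16.2 and 12.4 against 1.07, 8.84 and 5.12. It rested on 2 to 21 reads with vehicle and 1 to 8 with corticosterone, and the groups overlapped. Its log2 fold change of -0.76 had a 95% interval of -2.14 to 0.62 (limma adjusted p = 0.55), so that neither no change nor the fall of the other copies lay outside it. The value also turned on single libraries, at -1.60 without vehicle replicate 1, -0.25 without vehicle replicate 2, -0.43 without vehicle replicate 3, -0.12 without corticosterone replicate 1 and -1.25 without corticosterone replicate 2, with limma adjusted p of 0.29 or more in each.

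The sum of the copies does not depend on which copy a read was given to, provided that each shared read was counted once. Whether shared reads were counted once, dropped or counted for each copy is not given. It was 485, 561 and 636 with vehicle and 138, 198 and 145 with corticosterone. The mean went from 561 ± 75.6 to 160.1 ± 32.7 (SD, n = 3 each), and the log2 fold change of the sum was -1.81 with a standard error of 0.12 and a 95% interval of -2.05 to -1.57 (limma adjusted p = 2.9e-12). The share of each copy was not separated between the groups. Most stretches of *Bglap* and *Bglap2* are shared, and the rule that assigned such reads is not known. The shares can therefore reflect that rule, and they cannot show whether the copies fell alike. *Bglap* made up 41.3% ± 1.35 of osteocalcin reads with vehicle and 39.9% ± 4.51 with corticosterone (SD, n = 3 each, two-sided exact permutation p = 0.6). *Bglap2* made up 57.0% ± 2.60 and 57.1% ± 5.41 (SD, n = 3 each, exact permutation p = 1.0). *Bglap3* contributed 1.72% ± 1.29 and 2.93% ± 1.92 (SD, n = 3 each, exact permutation p = 0.4). In single libraries the share of *Bglap* ran from 37.2% (95% Wilson interval 29.4 to 45.8) to 45.1% (36.3 to 54.3), both with corticosterone and with overlapping intervals, which cover counting error only.

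**Figure D2:**
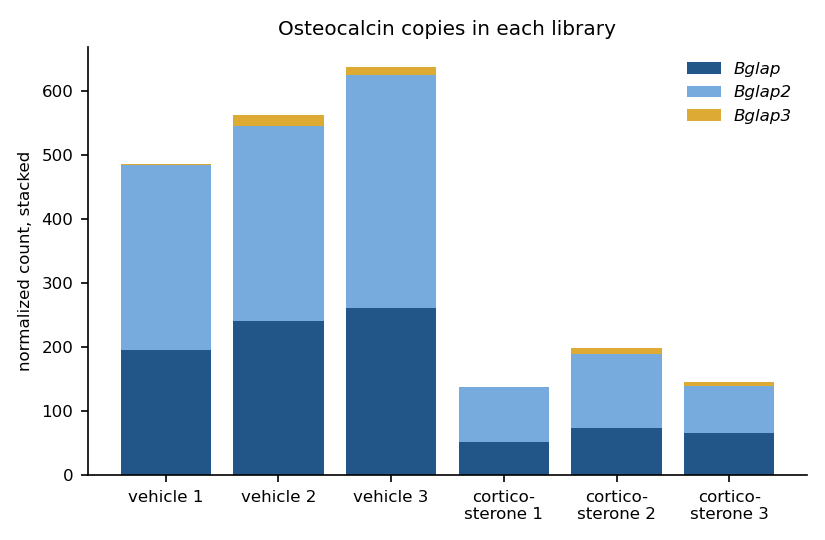
Stacked bars from 0 of the normalized counts of *Bglap* (dark blue), *Bglap2* (light blue) and *Bglap3* (yellow) in each of the 6 libraries. The 3 vehicle bars reach 485 to 636 and the 3 corticosterone bars 138 to 198, with similar proportions of *Bglap* and *Bglap2* in each.

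Matrix Gla protein, the other Gla protein of the group, moved the opposite way. *Mgp* (ENSMUSG00000030218, chr6:136872435-136875823, minus strand) had 35915, 34072 and 34195 with vehicle and 54417, 55649 and 59613 with corticosterone. All corticosterone libraries lay above all vehicle libraries, and the spread within each group was small. The mean rose from 34727 ± 1030.4 to 56559 ± 2715 (SD, n = 3 each), and the log2 fold change was 0.70 with a standard error of 0.042 and a 95% interval of 0.62 to 0.79 (limma adjusted p = 8.4e-13). This is 1.63-fold, short of the fold threshold but with the smallest adjusted p of the 10 genes taken singly. None of its 31-base stretches lies in another gene. Within a library the ratio of summed osteocalcin to *Mgp* fell by 2.51 on the log2 scale (5.71-fold), from -5.96 ± 0.233 to -8.47 ± 0.299 (SD, n = 3 each), in a measure that no scaling of libraries can alter apart from its pseudocount. The ratio was lower in all 3 corticosterone libraries (two-sided exact permutation p = 0.1, and 0.15 after Benjamini-Hochberg adjustment over 3 ratios, neither of which can pass 0.05 at this size).

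*Mgp* is also made by cartilage cells and vascular smooth muscle, and markers of both were read beside it. Of 6 chondrocyte markers 4 were listed (*Acan* and *Col9a1* were not), *Matn1* had at most 2 reads, and the summed level was lower with corticosterone, at 2987 to 3017 against 3543 to 3956 with vehicle. That sum was nearly all *Sox9* and *Col2a1*, and *Col10a1*, a marker of hypertrophic cartilage, was higher with corticosterone by the adjusted p alone (58.0 and 96.0, log2 fold change 0.72, limma adjusted p = 0.0057). All 5 smooth muscle markers were listed, with a summed level of 21985 to 24762 with vehicle and 28091 to 31517 with corticosterone, most of it *Acta2*. In that list *Cnn1* passed the threshold as higher (log2 fold change 1.03), while *Myh11*, which defines the mature cell, had at most 6 reads in a library. The part of these cell types in the rise of *Mgp* was not tested.

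The SIBLING genes did not move as a group. *Ibsp* fell past the threshold, *Spp1* rose by a small amount, *Dmp1* did not pass the test and *Mepe* was hardly detected. All 4 lie on the plus strand within 238 kb of chromosome 5 (GRCm38), in the order *Dmp1*, *Ibsp*, *Mepe* and *Spp1*. The median of the 4 log2 fold changes, -0.06, includes a fitted value of *Mepe* that rests on 3 reads. *Dspp*, the dentin gene of the same family, was not listed.

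*Ibsp* (ENSMUSG00000029306, chr5:104299171-104311469) encodes bone sialoprotein, an acidic protein that binds hydroxyapatite and nucleates its crystals. It had 600.1, 759 and 826 with vehicle and 257, 292 and 412 with corticosterone. The groups did not overlap, and corticosterone library 3 stood above the other corticosterone libraries. The mean fell from 729 ± 116 to 320.2 ± 81.3 (SD, n = 3 each), and the log2 fold change was -1.20 with a standard error of 0.12 and a 95% interval of -1.45 to -0.95 (limma adjusted p = 1.6e-08). Its coefficient of variation was 16.0% with vehicle and 25.4% with corticosterone, where counting alone would give 3.45% and 6.03% at its mean read number. Without a variance trend the limma adjusted p was 0.046, just under the limit. Leaving out any 1 library gave log2 fold changes of -1.40 to -1.06, and the limma adjusted p was at most 0.056, without vehicle replicate 2. Among genes with a mean of at least 10, a filter added after the data were seen, it was at most 1.5e-04.

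*Spp1* (ENSMUSG00000029304, chr5:104435118-104441050) encodes osteopontin, which binds integrins and CD44 and is known to restrain crystal growth. It was the most abundant of the 10, with 99097, 107785 and 101067 normalized counts with vehicle and 119249, 122009 and 120749 with corticosterone. The corticosterone libraries lay close together and just above the vehicle libraries. The mean rose from 102649.7 ± 4555 to 120669 ± 1382 (SD, n = 3 each), and the log2 fold change was 0.23 with a standard error of 0.043 and a 95% interval of 0.14 to 0.32 (limma adjusted p = 1.9e-04). The adjusted p was 0.12 without a variance trend and 0.059 with upper-quartile scaling. It was between 0.011 and 0.068 with 1 library left out, and over 0.05 without vehicle replicate 1 or 3 or corticosterone replicate 1 or 2, but at most 0.010 in such fits among genes with a mean of at least 10. Of its 31-base stretches 14.3% also lie in *Gm42793*, an overlapping gene model with mean normalized counts of 73.5 and 75.8. The ratio of *Ibsp* to *Spp1* within a library went from -7.15 ± 0.216 to -8.58 ± 0.347 (SD, n = 3 each) on the log2 scale, a 2.70-fold lower ratio with corticosterone (two-sided exact permutation p = 0.1, adjusted 0.15).

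*Dmp1* (ENSMUSG00000029307, chr5:104202613-104214102) encodes a protein of the osteocyte and its surroundings that takes part in mineralization and phosphate balance. It had 589.5, 592 and 616 with vehicle and 629.5, 615 and 622 with corticosterone. The groups overlapped. The means were 599 ± 14.9 and 622 ± 7.18 (SD, n = 3 each), with a log2 fold change of 0.05 with a 95% interval of -0.08 to 0.19 (limma adjusted p = 0.67, two-sided exact permutation p = 0.2), and -0.01 with upper-quartile scaling. On the linear scale the interval runs from 0.946-fold to 1.14-fold, so that a fall of the size of *Ibsp* lay outside it. The libraries of *Dmp1* spread less than counting alone would give, with coefficients of variation of 2.49% and 1.15% against 3.79% and 4.29%.

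*Mepe* (ENSMUSG00000053863, chr5:104325329-104338611), whose product is cleaved to a peptide that restrains mineralization and is made by mature osteocytes, had 0, 0 and 2.07 with vehicle and 0, 1.10 and 0 with corticosterone. These are 2 reads and 1 read in all. A count of 0 allows up to 3 reads, or 2.32 to 3.84 normalized counts in these libraries. No fold change is read here from a gene under that floor in both groups. Fitted values of *Mepe* that enter medians or alternative fits rest on these few reads.

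The membrane proteins of the group were both lower. *Ifitm5* (ENSMUSG00000025489, chr7:140948958-140950291, minus strand), the bone-restricted member of the interferon-induced transmembrane family, had 32.4, 40.1 and 40.3 with vehicle and 17.1, 16.6 and 11.5 with corticosterone. The groups did not overlap. The mean fell from 37.6 ± 4.51 to 15.1 ± 3.09 (SD, n = 3 each), and the log2 fold change was -1.28 with a standard error of 0.32 and a 95% interval of -1.94 to -0.62 (limma adjusted p = 0.0045). It rests on 39 to 52 reads with vehicle and 9 to 16 with corticosterone, and 27.2% of its 31-base stretches also lie in *Gm45717*, an overlapping gene model. The limma adjusted p rose to 0.066 without vehicle replicate 2 and 0.072 without vehicle replicate 3, with log2 fold changes of -1.23 in both. Among genes with a mean of at least 10 it stayed at or under 0.015 with any library left out.

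The other members of the family within 100 kb of *Ifitm5* did not fall with it. *Ifitm1*, *Ifitm2* and *Ifitm6* had log2 fold changes of 0.08, 0.01 and 0.20 without passing the test, and *Ifitm3* had 0.12 (limma adjusted p = 0.037). *Pdpn* (ENSMUSG00000028583, chr4:143267431-143299564, minus strand) had 920.4, 1023 and 954 with vehicle and 798, 825 and 802 with corticosterone, without overlap. The mean fell from 966 ± 52.6 to 808 ± 14.7 (SD, n = 3 each), and the log2 fold change was -0.26 with a standard error of 0.060 and a 95% interval of -0.38 to -0.13 (limma adjusted p = 0.0027). That is 83.7% of the vehicle mean, within the fold threshold, and the adjusted p was 0.11 without a variance trend. It was 0.055 without vehicle replicate 3, 0.065 without corticosterone replicate 1 and 0.053 without corticosterone replicate 3, and at most 0.016 in such fits among genes with a mean of at least 10.

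**Figure D3:**
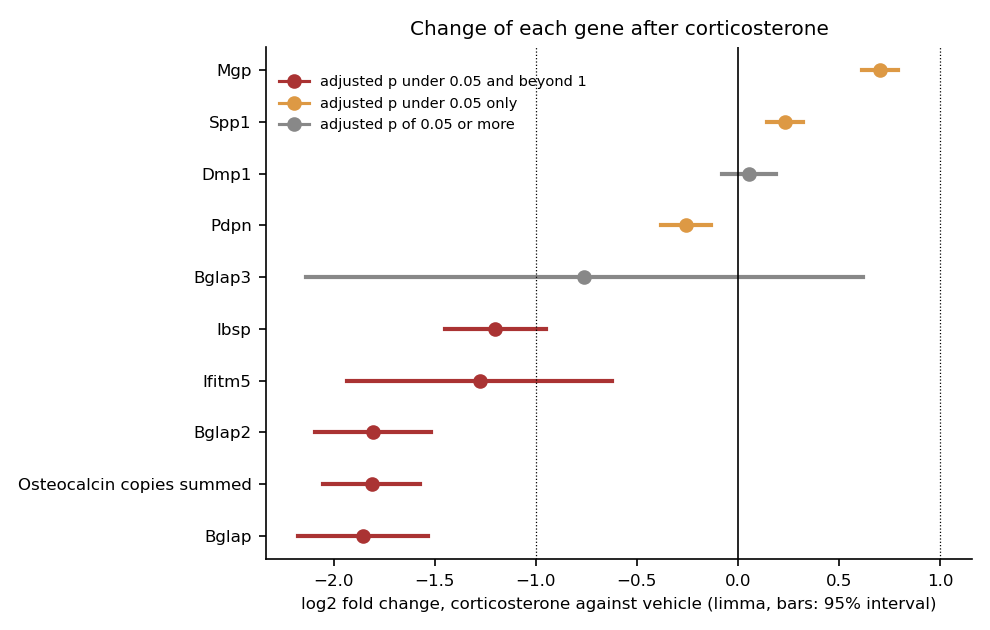
Log2 fold change of corticosterone against vehicle (x axis) for 9 of the genes and for the summed osteocalcin copies, from limma on 3 against 3 libraries. Points are estimates and lines 95% intervals, dotted lines mark -1 and 1, red marks genes past both limits, orange those past the adjusted p only and grey the rest. *Mepe* is left out for want of reads, the osteocalcin estimates lie near -1.8, and *Mgp* is highest at 0.70.

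The levels of the genes per kilobase of exon were compared next, since only values per length compare between genes. With vehicle the mean normalized counts per kb were 62287 for *Spp1*, 29256 for *Mgp*, 677 for *Bglap2*, 532 for *Pdpn*, 375 for *Bglap*, 352 for *Ibsp*, 217 for *Dmp1*, 49.2 for *Ifitm5*, 3.83 for *Bglap3* and 0.41 for *Mepe*. The ranges of neighbours in this order over the vehicle libraries overlapped for *Bglap* and *Ibsp*, at 315 to 422 and 290.2 to 399.6, and for *Bglap3* and *Mepe*, although within each library the first of each pair was higher. The place of *Bglap* depends on its length, since over its longest transcript its level was 527 per kb, close to that of *Pdpn*. The levels and ranks of *Bglap* and *Bglap2*, here and with corticosterone, also depend on how their shared reads were assigned. No summed level per kb was computed.

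With corticosterone the middle of the order changed. *Spp1* stood at 73221 and *Mgp* at 47649 normalized counts per kb, followed by *Pdpn* at 445, *Dmp1* at 225, *Bglap2* at 194, *Ibsp* at 155 and *Bglap* at 103. The ranges of *Dmp1* (223 to 228) and *Bglap2* (158 to 244) overlapped, and so did those of *Bglap2* and *Ibsp* (124 to 199). Among the 23983 genes with an annotated length, *Bglap2* went from rank 1365 to 4829, *Bglap* from 2631 to 7202 and *Ibsp* from 2805 to 5645. *Dmp1* stayed close to its place, at rank 4368 with vehicle and rank 4310 with corticosterone.

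Because *Spp1* and *Mgp* held 97.8% to 99.0% of the normalized counts of the 10 genes in every library, the total moved with them and not with the genes that fell. It was 140269.8 ± 3968 with vehicle and 179154 ± 3446 with corticosterone (SD, n = 3 each), a ratio of 1.28 without overlap (two-sided exact permutation p = 0.1). As a share of all reads the 10 genes went from 0.710% to 0.881%. *Spp1* alone took 0.520% and 0.594% of all reads and *Mgp* 0.176% and 0.278%.

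The promoters of *Bglap*, *Spp1* and *Dmp1* are shown because all hold the same short RUNX core, the binding letters of the osteoblast factor RUNX2, while the genes moved in different ways. The windows are RefSeq sequence of GRCm38.p6, 250 bases ending just before the gene start, written 5′ to 3′ on the strand of the gene, with the RUNX core in capitals. They lie at chr3:88384467-88384716 on the minus strand, chr5:104434861-104435110 on the plus strand and chr5:104202367-104202616 on the plus strand.
*Bglap* promoter: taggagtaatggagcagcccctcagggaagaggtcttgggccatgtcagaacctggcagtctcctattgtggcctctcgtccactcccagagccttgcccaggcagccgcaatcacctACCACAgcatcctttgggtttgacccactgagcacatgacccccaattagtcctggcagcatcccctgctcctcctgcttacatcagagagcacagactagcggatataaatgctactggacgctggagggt
*Spp1* promoter: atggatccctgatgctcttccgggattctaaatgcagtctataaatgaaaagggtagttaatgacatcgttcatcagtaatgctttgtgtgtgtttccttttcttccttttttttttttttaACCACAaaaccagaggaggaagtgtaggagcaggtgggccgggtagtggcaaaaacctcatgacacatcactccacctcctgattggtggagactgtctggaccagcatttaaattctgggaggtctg
*Dmp1* promoter: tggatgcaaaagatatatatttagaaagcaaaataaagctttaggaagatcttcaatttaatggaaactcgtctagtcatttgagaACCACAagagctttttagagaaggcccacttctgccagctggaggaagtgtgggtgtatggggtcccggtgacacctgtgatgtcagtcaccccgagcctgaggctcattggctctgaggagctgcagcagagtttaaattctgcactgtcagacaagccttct
The core, searched as ACCACA or TGTGGT so that both strands were read, began at base -132 of *Bglap*, -128 of *Spp1* and -164 of *Dmp1*, counted from the gene start. Of the 8 genes with a promoter entry (*Mgp* and *Bglap2* have none), 4 held it, the fourth being *Mepe*, beside 14.0% of all 32851 promoter windows. *Ibsp*, *Ifitm5*, *Pdpn* and *Bglap3* did not hold these letters in the window, and of the 3 genes with an entry that fell past the threshold *Bglap* alone held it. The RefSeq start lies 116 bases from the GENCODE start of *Ibsp* and 48 bases from that of *Ifitm5*, so that their windows reach past the GENCODE start and hold less upstream sequence than the others. A TATA box, searched as TATAAA on the strand of the gene, lay at -27 of *Bglap* and at -211 of *Spp1* (7.59% of all windows). The E box CANNTG, which reads alike on either strand, was in all 8 windows and in 66.2% of all. A half-site of the glucocorticoid receptor, searched as AGAACA or TGTTCT, was in 0 of the 8 windows and in 16.1% of all. A match here is a run of letters, not a measured binding site.

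Transcription factors known to act on the promoters of osteocalcin, *Ibsp* or *Spp1* were read from a list of 25. Of these, 24 were in the table. Lower past the threshold were 4, with log2 fold changes of -1.15 for *Runx2*, -1.34 for *Sp7*, which encodes osterix, -1.33 for *Dlx3*, a homeobox factor, and -1.96 for *Lef1*, the nuclear partner of β-catenin. Higher past it was 1, the calcitriol receptor gene *Vdr*, with 2.00. With the adjusted p alone 12 were lower and 6 higher, and the median of the list was -0.34. *Dlx5*, *Dlx6* and *Tcf7* were among the lower (-0.56, -0.71 and -0.82), and *Cebpb*, *Atf4* and *Msx2* among the higher (0.50, 0.29 and 0.32). The gene of the glucocorticoid receptor itself, *Nr3c1*, was lower at -0.44 by the adjusted p alone. In all the lists here, a gene named without passing both limits was chosen after its value was seen.

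Of 12 genes of Gla proteins and their carboxylation, all in the table, 2 were lower past the threshold and 0 higher, both of them osteocalcin copies. The median of the list was -0.13. Among the enzymes, *Ggcx*, the carboxylase, was higher at 0.18 by the adjusted p alone, and *Vkorc1*, which recycles vitamin K, was lower at -0.58, while its relative *Vkorc1l1* had -0.08 without passing the test. The protein S gene *Pros1* was lower at -0.18. The other abundant Gla protein genes, *Gas6* and *Postn*, had 0.08 and 0.02, neither past the adjusted p.

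Of 22 other glycoproteins of bone matrix, 21 were in the table, 2 were lower past the threshold and 1 higher, with 9 lower and 6 higher by the adjusted p alone and a median of -0.06. The matrilins, adaptor proteins of the matrix, split within this list, with *Matn4* lower (log2 fold change -1.72) and *Matn2* higher (1.59). *Clec11a*, which encodes osteolectin, a growth factor of the osteoblast lineage, was lower at -1.35. By the adjusted p alone, *Vtn* and *Smoc1* were lower (-0.87 and -0.62), as were the abundant collagen-binding genes *Sparc* and *Fn1* (-0.33 and -0.29). *Sparcl1*, *Smoc2*, *Fbln2* and *Thbs1* were higher by it (0.68, 0.94, 0.66 and 0.59).

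Of 18 osteocyte markers, 15 were in the table, and *Sost*, *Dkk1* and *Ptprz1* were not listed. Lower past the threshold were 2, *Fgf23*, the gene of the phosphate hormone, and *Tnfrsf11b*, the gene of osteoprotegerin. *Fgf23* had -2.18, from at most 41 reads in any library, and *Tnfrsf11b* had -1.07. Higher past the threshold was 1, *Fbln7* at 1.09. With the adjusted p alone 6 were lower and 4 higher, and the median was -0.17. *Pdpn* was among the 6, beside *Cd44* (-0.57), *Irx5* (-0.46) and *Fam20c* (-0.88), and the actin-binding genes *Dstn* (0.46) and *Capg* (0.31), known from early osteocytes, were among the 4.

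SIBLING proteins are phosphorylated and cut after they are made, and 9 of 10 genes of these steps were in the table. No gene of this list passed both limits, and edgeR and DESeq2 also called 0 in either direction. In limma an unadjusted p under 0.05 and the adjusted p alone were each reached by 2 as lower and 4 as higher, with a median of 0.20. The lower genes were *Fam20c*, the kinase that phosphorylates the SIBLING proteins, at -0.88, and its partner *Fam20a* at -0.84. The higher were *Ctsb* (0.48), *Tgm2* (0.39), which crosslinks osteopontin, *Mmp14* (0.22) and *Furin* (0.20).

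Of 14 genes of receptors for the RGD motif of these proteins and of podoplanin partners, 12 were in the table and 0 passed both limits in limma, edgeR or DESeq2. By the adjusted p alone in limma, and by the unadjusted p as well, 4 were lower and 5 higher, with a median of 0.07. Among the integrins, *Itgb3*, *Itgb5* and *Itgav* were lower (-0.62, -0.37 and -0.21), and *Itgb1*, *Itga5* and *Itga8* were higher (0.55, 0.45 and 0.45). *Cd44*, a receptor for osteopontin that also binds podoplanin, was lower (-0.57), and *Ezr*, which links podoplanin to actin, was higher (0.83). The genes of the lists above were chosen with results of these data already known. Their counts are read beside the shares given earlier, of all genes and of those with a mean of at least 10.

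**Figure D4:**
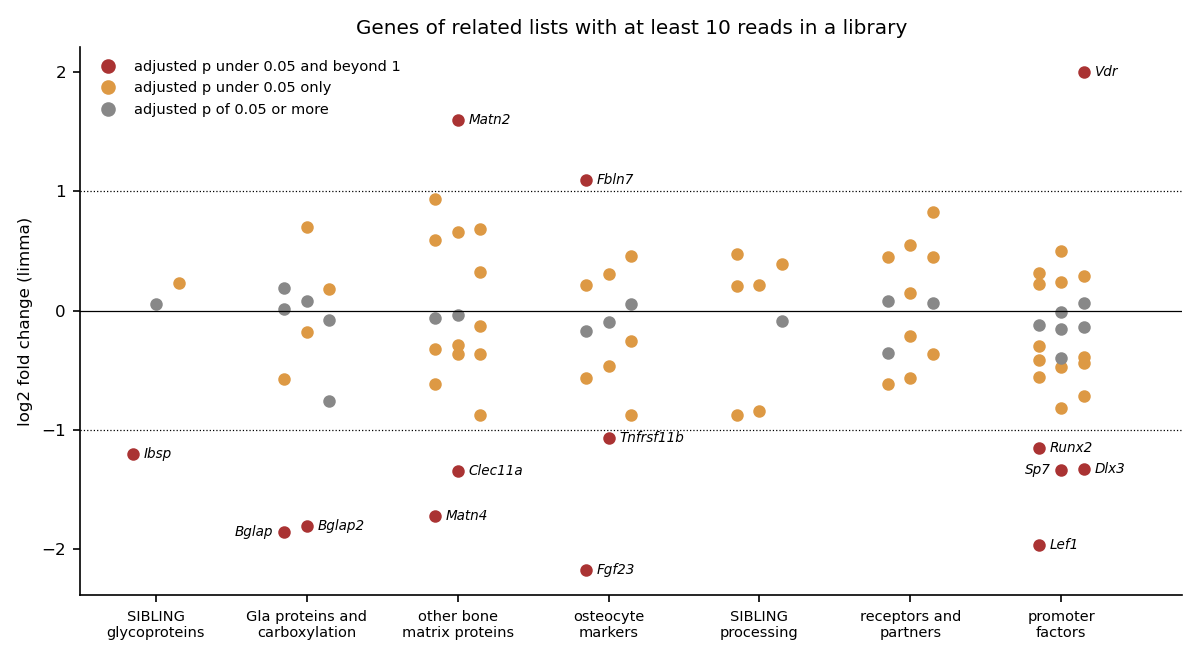
Log2 fold change (y axis, limma) of the genes of each list (x axis) that had at least 10 reads in some library. Points are genes, spread sideways only to be seen, in red and with their name where past both limits, in orange where past the adjusted p alone and in grey otherwise, and dotted lines mark -1 and 1. *Vdr* is highest at 2.00 and *Fgf23* lowest at -2.18, and the lists of SIBLING processing and of receptors hold no red point.

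Both gene clusters could be read against their neighbours. The osteocalcin copies lie within 15.8 kb of chromosome 3, and of 12 other genes of the table within 100 kb of them 0 passed both limits in either direction. Of these, 1 was lower by the adjusted p alone (*Lmna*, log2 fold change -0.12) and 0 were higher. The well-read genes closest on either side, *Smg5* and *Pmf1*, had 0.06 and -0.16, neither past the adjusted p. Around the SIBLING cluster, 0 of 7 other genes passed both limits and 2 were higher by the adjusted p alone, *Sparcl1* at 0.68, which encodes a SPARC relative, and *D930016D06Rik* at 0.31. *Pkd2*, next to *Spp1*, had 0.04.

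Near *Mgp*, *Ifitm5* and *Pdpn*, 0 of 8, 0 of 13 and 0 of 3 other genes passed both limits. In all, 43 genes neighbour the 10, of which 1 was lower and 6 higher by the limma adjusted p alone, and 3 and 10 at an unadjusted p under 0.05. Neither edgeR nor DESeq2 called any of the 43 past both limits. Over all genes, 1.51% were lower and 1.47% higher past both limits, and 8.64% and 8.95% by the adjusted p alone. A count of 0 among 43 genes past both limits is near those shares. Some neighbours also had too few reads to be called, such as *Odf3* near *Ifitm5*, with at most 6 reads in a library. Its log2 fold change was -1.51 (limma adjusted p = 0.11).

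**Figure D5:**
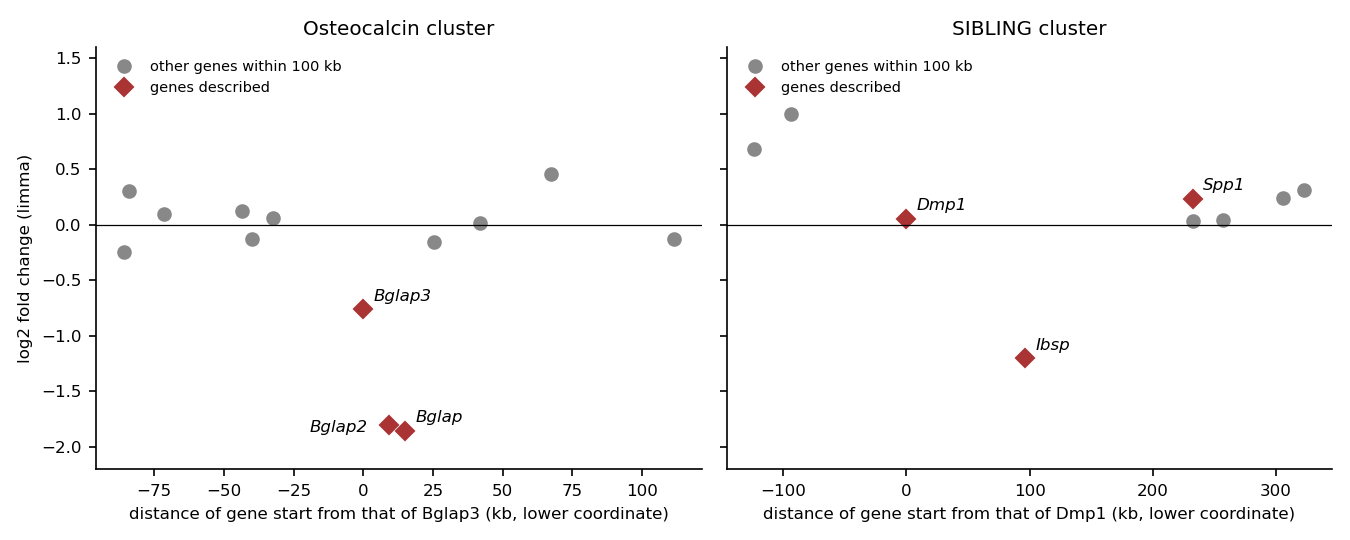
Log2 fold change (y axis, limma) of genes by the distance in kb of their lower coordinate from that of *Bglap3* (left) or *Dmp1* (right). Red diamonds are the genes described (*Mepe*, with at most 2 reads, is left out) and grey circles the other genes within 100 kb that had at least 10 reads in a library. The osteocalcin copies and *Ibsp* lie below all their neighbours, which range from -0.25 to 1.00.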

How the data were processed

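RNA-seq of 6 libraries (3 vehicle, 3 corticosterone, grouped by the labels) was read from 1 deposited table of 24016 genes. RNA was isolated on columns, libraries were made with the NEBNext Ultra RNA kit, and the submitters' processing notes name mm10. The aligner, counter, annotation and strand setting are not given in the sources used here. The table is named FPKM, but per the values the deposited signal is a read count divided by 1 factor per library. In each library 100% of values were whole multiples of 1 step (tolerance 0.01 reads), so whole reads were recovered. Length was therefore not part of the values.

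The main test was limma 3.58.1 (R 4.3.3) with a variance trend on log2(value + 1), with no filter on low values, two-sided, with Benjamini-Hochberg adjustment over all genes. Fold changes are on that scale, which understates the change of genes with few reads. The prior degrees of freedom of limma were 21.1, so that p-values and intervals rest largely on the variance trend over genes. Without the trend, the limma adjusted p was 0.0090 for *Bglap*, 0.011 for *Bglap2*, 0.046 for *Ibsp*, 0.024 for *Ifitm5* and 0.0088 for *Mgp*. It was 0.12 for *Spp1* and 0.11 for *Pdpn*. The log2 ratios and shares were tested by two-sided exact permutation (scipy 1.17.1). edgeR 4.0.16 and DESeq2 1.42.0 on the recovered reads, other scalings, pseudocounts, filters, the replicate block and each library left out were alternatives. The scripts were tested on simulated data. There the unfiltered limma fit with the replicate block had to limit false calls, but was not required to recover the changes set. Libraries of the same group differed beyond counting noise (chi-square per degree of freedom at least 3.58, and at least 33.9 between groups).

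Coordinates and transcripts come from GENCODE vM21 (GRCm38) and promoters from RefSeq (GRCm38.p6). Named were the 10 genes, list genes past the threshold, genes within 100 kb and genes sharing 31-base stretches. The genes and lists were chosen with earlier results of these data known.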

Additional observations from a re-analysis of the deposited data

How the results depend on the processing

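*Bglap*, *Bglap2*, *Ibsp* and *Ifitm5* stayed lower past the threshold under every alternative run, apart from those named next. With DESeq2 and the replicate block *Ifitm5* had a log2 fold change of -1.32 (adjusted p = 0.060), *Mepe* 0.23 from 3 reads in all, and 198 genes were lower past the threshold in place of 362 (DESeq2 without the block, 245). With each library left out, log2 fold changes ranged from -1.40 to -1.06 for *Ibsp*, from -1.38 to -1.11 for *Ifitm5*, from -1.60 to -0.12 for *Bglap3* and from -0.54 to 0.36 for *Mepe*, genes lower past the threshold from 229 to 285, and the members among them from 2 to 4 (2 without vehicle replicate 2, when *Ibsp* and *Ifitm5* missed the adjusted p; *Ifitm5* also missed it without vehicle replicate 3). In these fits the prior degrees of freedom of limma fell from 21.1 to between 1.68 and 2.96. Among genes with a mean of at least 10, chosen after seeing the data, they stayed between 9.94 and 13.0 and all 4 genes kept their call. With upper-quartile scaling *Dmp1* changed sign, at -0.014. Per kb of the longest transcript the vehicle levels were 68115 for *Spp1*, 48569 for *Mgp* and 527 for *Bglap*, from the shorter length. The median of the SIBLING list was -0.32 with DESeq2, and that of other matrix glycoproteins -0.13 with a pseudocount of 0.1 (the cause was not tested for either).

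Replicate numbers are shared between groups, but the labels do not say that they pair libraries, and deviations of same-numbered libraries had correlations of -0.021, 0.014 and 0.021 over 13880 genes. With limma and the replicate block 375 genes were lower and 361 higher past the threshold (362 and 354 without it), and all 4 genes kept their call. Read depth limits *Bglap3*, *Mepe* and *Ifitm5* most.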
